A study of Mus musculus with 6 samples.

Results

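The tripartite motif (TRIM) proteins were examined in mouse liver as a gene family. Members were the targets of the array whose deposited gene description contained the words "tripartite motif", and where a gene had several target rows, the row with the highest mean log2 intensity over all 6 arrays was kept. This gave 49 members from 83 rows, out of 36336 features on the array after rows of the same gene had been joined. Of the members, 46 (93.9%) had a mean level above that of the RANDOM row, a set of 5000 random probes that serves as the background of each array, against 84.4% of all features. The study compared 3 mice given LPS together with GalN and 3 mice given LPS alone, with 1 array per mouse. All were wild-type male C57 BL/6 mice aged 9 to 10 weeks, and all received 0.01 µg LPS (bacterial lipopolysaccharide), either with 20 mg of the hepatocyte-directed sugar D-galactosamine (GalN) or without it, for 2.5 hours. The replicates came from separate treatments. Both groups carried LPS, neither untreated mice nor a GalN-only arm was analysed here, and each change below sets GalN with LPS against LPS and says nothing of the response to LPS itself.

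TRIM proteins are built from a RING finger, which in most members acts as an E3 ubiquitin ligase, followed by B-box zinc fingers and a coiled coil, and they differ in the domain that follows. Many members act in innate immune signalling: they ubiquitinate or scaffold RNA and DNA sensors and their adaptors, or act on incoming viruses, and the genes of several of them are transcribed in response to interferon. Other members bind chromatin, microtubules or the sarcomere. GalN depletes uridine nucleotides in hepatocytes and makes mice sensitive to small amounts of LPS.

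Promoter sequences of 3 members that fell in LPS/GalN livers and stayed past the threshold with each array left out are shown first. These 3 carry an exact match to letters of the interferon-stimulated response element (ISRE). Trim56, which fell as stably and holds no exact match, is shown with them. Trim25 also fell as stably without an exact match and is not shown. The sequences are the RefSeq windows of GRCm38.p6, from 250 bases before to 50 bases after an annotated start, written 5′ to 3′ along the gene, and where RefSeq had several starts the most upstream one is shown. The windows are those of Trim21 at chr7:102565433-102565732 on the minus strand, Trim30 (RefSeq Trim30a) at chr7:104465144-104465443 on the minus strand, Trim30d at chr7:104507800-104508099 on the minus strand and Trim56 at chr5:137116158-137116457 on the minus strand. Capitals mark matches to the ISRE letters GAAANNGAAA on either strand.
Trim21: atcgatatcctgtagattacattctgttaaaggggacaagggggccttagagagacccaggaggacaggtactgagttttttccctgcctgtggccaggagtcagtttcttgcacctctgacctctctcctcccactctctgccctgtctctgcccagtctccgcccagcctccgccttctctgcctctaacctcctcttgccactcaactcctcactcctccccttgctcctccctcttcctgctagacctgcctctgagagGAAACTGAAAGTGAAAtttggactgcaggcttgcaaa
Trim30: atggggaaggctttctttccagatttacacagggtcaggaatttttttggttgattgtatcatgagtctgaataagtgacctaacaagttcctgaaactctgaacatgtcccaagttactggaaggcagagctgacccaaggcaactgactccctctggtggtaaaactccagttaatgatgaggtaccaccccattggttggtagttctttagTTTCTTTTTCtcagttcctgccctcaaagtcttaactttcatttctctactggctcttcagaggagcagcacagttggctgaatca
Trim30d: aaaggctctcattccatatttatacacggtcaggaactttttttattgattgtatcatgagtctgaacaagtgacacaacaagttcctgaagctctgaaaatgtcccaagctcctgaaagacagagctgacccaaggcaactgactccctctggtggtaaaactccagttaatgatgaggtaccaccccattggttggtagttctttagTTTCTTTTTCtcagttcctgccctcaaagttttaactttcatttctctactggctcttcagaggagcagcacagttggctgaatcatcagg
Trim56: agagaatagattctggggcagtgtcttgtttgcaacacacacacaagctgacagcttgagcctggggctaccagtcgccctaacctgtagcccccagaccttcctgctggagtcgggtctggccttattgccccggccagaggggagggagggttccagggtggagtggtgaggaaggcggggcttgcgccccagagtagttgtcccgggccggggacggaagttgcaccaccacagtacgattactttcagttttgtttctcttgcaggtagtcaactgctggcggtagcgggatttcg
The capitals in Trim21 are 2 overlapping matches that begin 14 and 20 bases from the start, in the transcribed part of the window. The match in Trim30 begins 36 bases and that in Trim30d 41 bases before the start, both on the opposite strand. Aligned end to end, the Trim30 and Trim30d windows shared 277 identical bases, with 18 mismatches and 10 gap positions.

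The windows of all members were searched on both strands for the same ISRE letters, for the GAS letters TTCNNNGAA (the element bound by STAT dimers) and for the NF-kB letters GGGANNTTCC. The searches allowed the motifs to overlap one another and counted exact matches only, so near matches were not examined. RefSeq windows were found for 8 of the 10 members that fell and for 28 of the 39 that did not pass the test. An ISRE match was present for 5 of those 8 members (Trim21, Trim30, Trim30d, Trim12 and Trim26) and for 3 of the 28 (Trim12c, Trim34 and Trim2), while 3.99% of all 27025 genes with a window had one. Trim30, Trim30d, Trim12, Trim12c and Trim34 belong to a cluster of related genes on chromosome 7, so their matches are not independent of one another. Trim12c and Trim34 did not pass the test, but a further target at Trim12c and other rows of Trim34 did, as given below. No window of Trim56, Trim25 or Trim6 held the ISRE letters. The GAS letters were found for 0 of the 8 and 4 of the 28, against 9.55% of all genes, and the NF-kB letters for 0 of the 8 and 1 of the 28 (Trim28), against 1.63% of all genes. These matches describe the letters in the windows and were not tested against the changes.

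RMA intensity is the background-corrected and normalized brightness of a target, summarised over its probe pairs, and levels below are its log2. Changes are the mean of the LPS/GalN mice minus the mean of the LPS mice, with the standard error from limma fitted over all features, and a member was called where the p-value adjusted over all features was below 0.05. The median intensity of an array ranged from 60.35 to 63.11 and the RANDOM row from 31.31 to 34.7, and 17.5% to 22.0% of targets lay at or below that row. All 5 hepatocyte markers were above RANDOM on every array, and their summed intensity ranged from 214760 to 243775 in LPS/GalN livers and from 227961 to 247220 in LPS livers.

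Certain arrays carried markers of other tissues. The summed intensity of the 10 measured T cell and thymocyte markers was 670, 14640 and 9335 on LPS/GalN arrays 1, 2 and 3, against 860, 723 and 1010 on the LPS arrays; 4 of the 10 were above RANDOM on all arrays. The 14 markers of intestine and exocrine pancreas summed to 2987, 2780 and 2361 on the LPS/GalN arrays, against 29164, 33294 and 3799 on the LPS arrays. Of the 14, 7 were above RANDOM on all arrays and 1 (Tff3, -1.98) was called lower. Levels on LPS arrays 1, 2 and 3 were 5.34, 6.01 and 5.46 for Cpa1 and 6.02, 6.23 and 6.81 for Cela1. These pancreatic enzyme genes did not follow the sum. LPS/GalN mice 2 and 3 and LPS mice 1 and 2 stood apart from the third mouse of their groups. Endothelial markers summed to 8230 to 10122 in LPS/GalN livers, against 3326 to 5848 in LPS livers, and Kupffer cell and macrophage markers to 7364 to 9145 in LPS/GalN livers, against 4606 to 6399 in LPS livers. All of the 5 endothelial and 6 macrophage markers were above RANDOM on every array, and 3 of the endothelial markers and none of the macrophage markers were called higher. Neutrophil markers summed to 964 to 1530 in LPS/GalN livers, against 2581 to 3731 in LPS livers, with 3 of the 5 above RANDOM on all arrays. That sum followed S100a8 (-1.66) and S100a9 (-1.55), which were called lower, while Ly6g (-0.32), Mpo (-0.07) and Elane (0.10) were not called. In whole liver RNA, fewer cells of a type and less RNA per cell cannot be told apart, and the part of these cell types in the changes below was not tested except where a value without the arrays is given.

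In LPS/GalN livers 10 of the 49 members fell and none rose (limma, p adjusted over all features). The members that fell were Trim21, Trim30, Trim6, Trim30d, Trim14, Trim12, Trim56, Trim26, Trim11 and Trim25, by between 3.22-fold for Trim25 and 14.5-fold for Trim21. Of all features, 3.05% were called lower and 0.605% higher, while 20.4% of the members were called lower; of features above RANDOM, 3.61% were called lower and 0.717% higher, against 21.7% and none of the 46 members. At an unadjusted p under 0.05, 1 member was higher, Trim54, which encodes a muscle ring finger protein. Most members did not pass the test: the median change of the 46 members above RANDOM was -0.11, against 0.0709 for all features above RANDOM, with 25 members negative and 21 positive. In 13 members all LPS/GalN mice lay below all LPS mice and in 1 (Trim28) above them, against 11.1% and 13% of all features. A change of at least 2-fold was measured downward in 12 members, against 5.65% of features, and upward in 1 (Trim54), against 3.58% of features. All 10 called members were negative in every alternative fit that held them. Their groups did not overlap, so leaving out arrays could not have changed these signs. Trim6 was not in the deposited value table, which held the other 9.

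**Figure D1:**
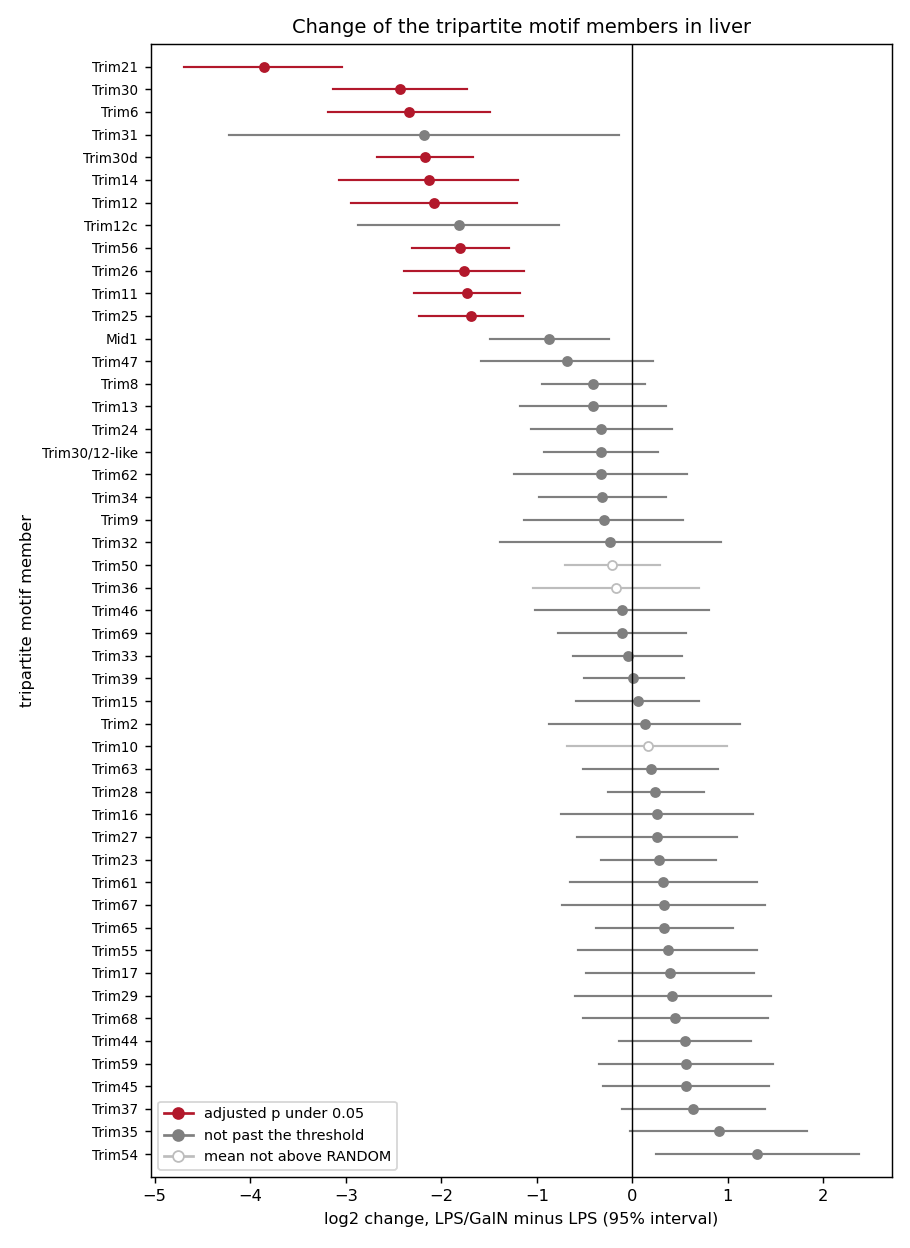
Log2 change, LPS/GalN minus LPS, of each of the 49 members (points) with its 95% interval (lines) from the limma fit; red marks an adjusted p under 0.05 and open points a mean level not above RANDOM. The 10 called members lie between -3.86 and -1.69, and 1 uncalled member, Trim54, lies above 1.

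Innate immune signalling outside the chromosome 7 cluster was the role group with the most members. Of its 16 members, 6 fell and none rose, where 3.05% of all features were called lower and 0.605% higher. Their median change was -0.41, against 0.0526 for all features. Trim21 (chr7:109706437-109713936, mm9), the cytosolic Fc receptor that targets antibody-bound virus for degradation, had levels of 6.52, 5.92 and 7.35 in the LPS/GalN mice, against 10.55, 10.32 and 10.51 in the LPS mice. The LPS mice were close together and the LPS/GalN mice spread over more than 1 unit, with a wide gap between the groups. The change was -3.86 ± 0.36 (SE, n = 3 mice per group; adjusted p = 0.00138), a fall of 14.5-fold, and with each array left out it ranged from -4.24 to -3.52.

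Trim25 (chr11:88860716-88874985, mm9), the ligase that ubiquitinates the RNA sensor RIG-I, had levels of 9.98, 9.61 and 9.42 in LPS/GalN mice, against 11.21, 11.43 and 11.44 in LPS mice. The groups did not overlap, and the change was -1.69 ± 0.24 (adjusted p = 0.00707). Trim25 had a second target row that was also called when rows were tested singly, with a change of -2.40. Trim56 (chr5:137587151-137592067, mm9), which acts in STING and TLR3 signalling, had levels of 6.78, 6.65 and 7.04 in LPS/GalN mice, against 8.75, 8.62 and 8.48 in LPS mice. Both groups were tight and well apart, and the change was -1.80 ± 0.22 (adjusted p = 0.00406), or 3.48-fold lower.

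Trim14 (chr4:46519718-46547314, mm9), a member without a RING finger that works as an adaptor of the mitochondrial antiviral signalling protein, had levels of 7.97, 6.33 and 7.11 in LPS/GalN mice, against 9.44, 8.95 and 9.41 in LPS mice. The highest LPS/GalN mouse lay about 1 unit below the lowest LPS mouse. The change of -2.13 ± 0.41 was past the threshold (adjusted p = 0.0281) but was lost in 5 of the 6 fits that left out an array, those without LPS/GalN replicate 2 or 3 or any LPS replicate, where the adjusted p reached 0.114. One of the other 2 rows of Trim14 lay near the kept row, with 7.95, 6.16 and 7.56 in LPS/GalN mice, against 8.98, 8.98 and 9.41 in LPS mice. Its groups did not overlap, and its difference of -1.90 just missed the threshold when rows were tested singly (limma, adjusted p = 0.0597). The remaining, dimmer row went the other way, with 6.51, 5.87 and 6.52 in LPS/GalN mice, against 5.03, 5.91 and 5.48 in LPS mice. That difference of 0.83 was not past the threshold.

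Trim26 (chr17:36974130-36996325, mm9), a ligase known to act on the interferon regulatory factor Irf3, had levels of 9.62, 8.84 and 9.35 in LPS/GalN mice, against 10.78, 11.24 and 11.08 in LPS mice. The groups did not overlap, and the change was -1.76 ± 0.27 (adjusted p = 0.0109). Leaving out LPS replicate 2 ended the call (adjusted p = 0.0568), and its second, dimmer row differed by -0.38, short of the threshold. Trim11 (chr11:58791617-58804957, mm9), a ligase of the same RING and SPRY build, had levels of 8.85, 8.97 and 8.35 in LPS/GalN mice, against 10.44, 10.51 and 10.42 in LPS mice. The LPS mice nearly coincided, and the change was -1.73 ± 0.24 (adjusted p = 0.00673). All 3 rows of Trim11 were negative, between -1.73 and -1.35, and 2 of them were called.

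**Figure D2:**
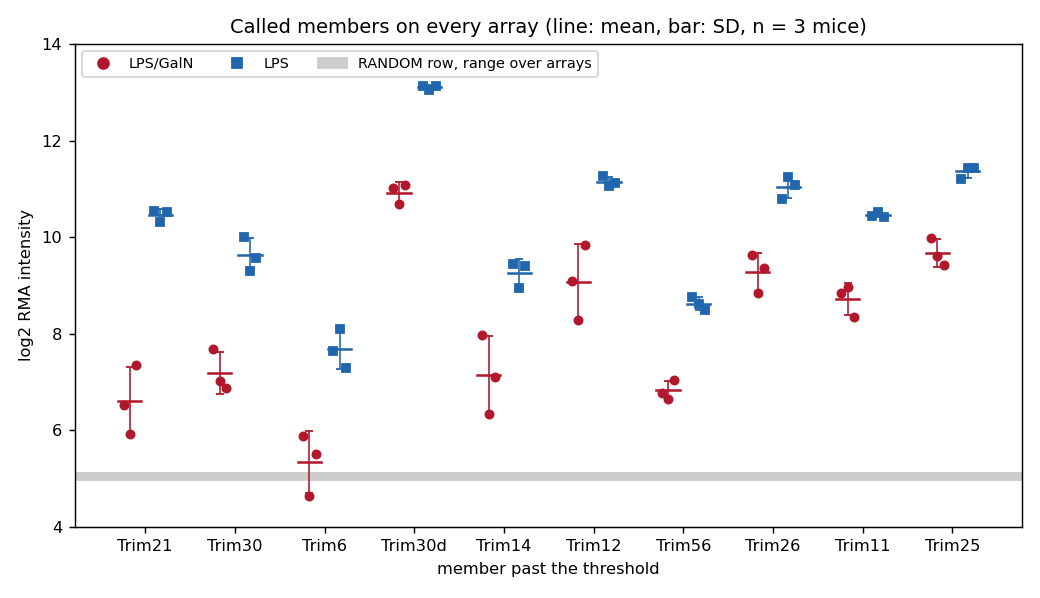
Log2 RMA intensity of the 10 called members on every array: red circles are LPS/GalN mice and blue squares LPS mice (n = 3 each), with the mean as a line and the SD as a bar; the grey band is the range of the RANDOM row. No LPS/GalN mouse reaches an LPS mouse in any of the 10, and 1 LPS/GalN mouse lies below the band for Trim6.

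The other 10 members in this role group did not pass the test. Trim31, a ligase known from intestinal epithelium that acts on the NLRP3 inflammasome, had levels of 5.45, 4.83 and 5.36 in LPS/GalN mice, against 8.41, 8.77 and 5.0 in LPS mice. Only LPS mice 1 and 2 were high, and LPS mouse 3 lay among the LPS/GalN mice. The same 2 arrays carried the intestine markers: Vil1, a protein of the intestinal brush border, was at 5.73, 7.21 and 6.31 in LPS/GalN mice, against 13.04, 13.02 and 6.99 in LPS mice. The Trim31 difference was -2.18 ± 0.88 (adjusted p = 0.254), was past the threshold without LPS replicate 3 (-3.38, adjusted p = 0.00225), and was 0.21 without LPS replicates 1 and 2 (adjusted p = 0.902).

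Trim35, a ligase expressed in macrophages, had levels of 7.62, 9.25 and 8.16 in LPS/GalN mice, against 7.68, 7.30 and 7.33 in LPS mice. LPS/GalN mice 2 and 3, those with the high thymocyte markers, were the highest, and LPS/GalN mouse 1 lay within the LPS group. The difference was 0.91 (95% interval -0.02 to 1.83, adjusted p = 0.295). Without LPS/GalN replicates 2 and 3 it was 0.19, in a fit with 1 mouse left in that group. A second row of Trim35, with 7.97, 9.12 and 8.71 in LPS/GalN mice, against 7.03, 6.59 and 7.15 in LPS mice, was the only one of the 83 rows called higher, by 1.68, where 0.654% of all rows were called higher. On that row LPS/GalN mouse 1 also lay above the LPS mice. The part of thymocyte RNA in this called row was not tested.

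**Figure D3:**
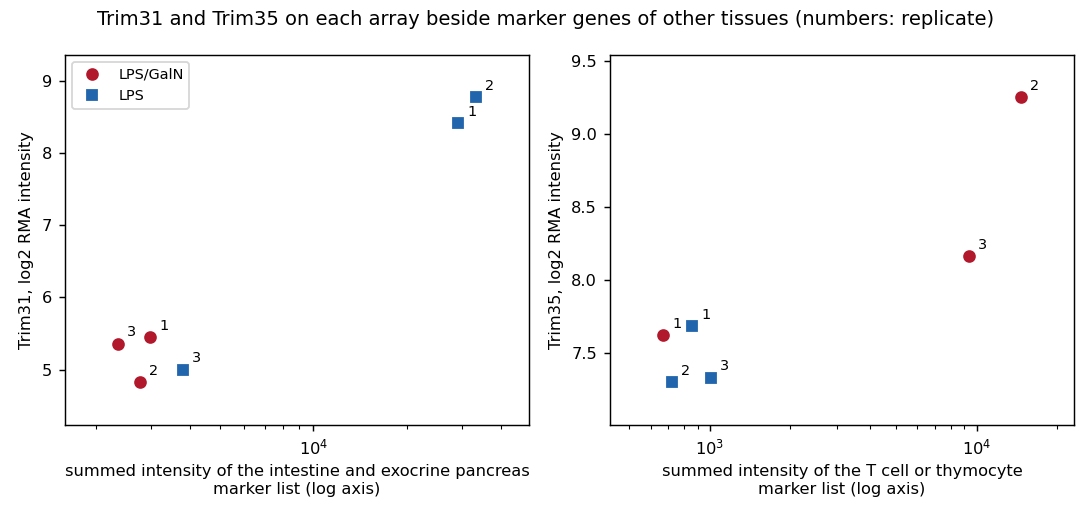
Log2 RMA intensity of Trim31 (left) and Trim35 (right) on each array against the summed intensity of a marker list on a log axis, for LPS/GalN mice (red circles) and LPS mice (blue squares), numbered by replicate. The 2 high values of Trim31 belong to the LPS mice whose intestine marker sums are 29164 and 33294, and the 2 highest values of Trim35 to the LPS/GalN mice whose thymocyte marker sums are 14640 and 9335.

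Trim27, also known as the RET finger protein and linked to IkB kinase regulation, showed the same high LPS/GalN mouse 2, with 8.95, 10.27 and 9.55 in LPS/GalN mice, against 9.12, 9.72 and 9.14 in LPS mice. Its difference of 0.26 (95% interval -0.58 to 1.10) lay within the spread of the mice. Trim8, which promotes NF-kB signalling by TNF and acts on Socs1, had levels of 10.27, 10.36 and 9.92 in LPS/GalN mice, against 10.50, 10.83 and 10.46 in LPS mice. The groups did not overlap, but the gap was narrow and the difference of -0.41 (95% interval -0.95 to 0.13, adjusted p = 0.425) did not pass the threshold. Trim13, a ligase of the endoplasmic reticulum membrane, differed by -0.41 (-1.18 to 0.35). Trim23, which carries an ARF domain beside its RING finger, differed by 0.28 (-0.33 to 0.88). The groups overlapped for both.

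A second set lay together on chromosome 7, in the cluster of related genes that holds the mouse relatives of primate Trim5, a restriction factor of retroviruses. Of 7 members there, 4 fell and none rose, where 3.05% of all features were called lower and 0.605% higher. All 7 had negative changes, and their median was -2.08, against 0.0526 for all features. The share of all features with a negative change was not counted. Genes of such a cluster can resemble one another. Whether a probe reports 1 of them or several cannot be told here, and the values below are uncertain as values of single genes. Trim30 (RefSeq Trim30a, chr7:111582022-111613707, mm9), a mouse brake on Toll-like receptor signalling to NF-kB, had levels of 7.68, 7.02 and 6.87 in LPS/GalN mice, against 10.01, 9.29 and 9.56 in LPS mice. The groups lay far apart, and the change was -2.43 ± 0.30 (adjusted p = 0.00438). Its second row was called as well, with a change of -1.75.

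Trim30d (chr7:111620362-111656339, mm9), whose promoter resembles that of Trim30, had levels of 11.01, 10.68 and 11.08 in LPS/GalN mice, against 13.14, 13.04 and 13.12 in LPS mice. This tight separation gave a change of -2.17 ± 0.22 (adjusted p = 0.00187), or 4.51-fold lower. A further target of the same span, described without the family name, had 9.16, 8.23 and 9.02 in LPS/GalN mice, against 9.55, 9.55 and 9.56 in LPS mice. It lay on the same side, but its difference of -0.75 did not pass the threshold (adjusted p = 0.223).

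Trim12 (RefSeq Trim12a, chr7:111448410-111463969, mm9), a mouse relative of Trim5, had levels of 9.09, 8.28 and 9.84 in LPS/GalN mice, against 11.26, 11.05 and 11.13 in LPS mice. The change of -2.08 ± 0.38 (adjusted p = 0.0228) rested on a spread-out LPS/GalN group, and it missed the threshold without any 1 of the LPS replicates, with an adjusted p of up to 0.096. A second, dimmer row of Trim12 had 5.19, 5.61 and 5.57 in LPS/GalN mice, against 6.14, 6.45 and 5.20 in LPS mice. Those groups overlapped, and the difference of -0.47 did not pass the threshold. Trim6 (chr7:111367308-111376247, mm9), whose human protein makes free ubiquitin chains that activate the kinase IKK epsilon, had levels of 5.89, 4.63 and 5.51 in LPS/GalN mice, against 7.65, 8.10 and 7.29 in LPS mice. It was above RANDOM on 2 of the 3 LPS/GalN arrays and on all LPS arrays. The change was -2.34 ± 0.37 (adjusted p = 0.0119), and leaving out LPS replicate 1 or 2 brought the adjusted p to 0.0545 or 0.0563, above the threshold.

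Trim12c had levels of 7.58, 6.11 and 7.96 in LPS/GalN mice, against 9.25, 8.81 and 9.05 in LPS mice. The groups did not overlap and the difference of -1.82 ± 0.45 was of similar size to those above, but LPS/GalN mouse 2 was far below the other two and the adjusted p was 0.0778. A further target of nearly the same span passed the threshold, with 7.39, 7.56 and 8.03 in LPS/GalN mice, against 9.62, 9.09 and 9.51 in LPS mice (change -1.75, adjusted p = 0.0101). It was the brighter of the pair, with LPS/GalN and LPS means of 7.66 and 9.41, against 7.22 and 9.04 for the member. Its description lacked the words of the rule, so it was not joined with the member.

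Trim34 (RefSeq Trim34a) showed how the choice of row decided a call. Its brightest row, which the selection kept, had 7.32, 6.76 and 7.48 in LPS/GalN mice, against 7.13, 7.82 and 7.55 in LPS mice, and these overlapped. The second row had 4.66, 5.17 and 5.42 in LPS/GalN mice, against 7.85, 6.76 and 7.02 in LPS mice, and fell by 2.13. The third row fell by 1.41, and both of these were called when rows were tested singly. The 2 rows with the longest spans reach over neighbouring genes of the cluster. The remaining member of the cluster, a target described only as similar to Trim30 or Trim12, had 3 rows with changes between -0.33 and -0.01, none past the threshold.

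**Figure D4:**
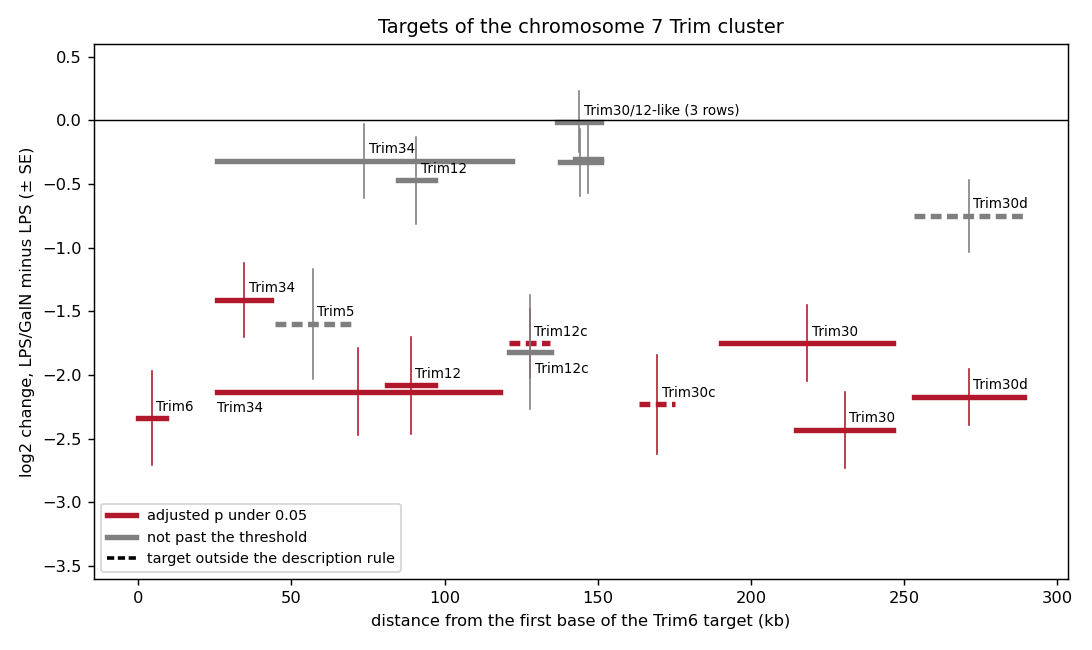
Log2 change ± SE of each target row in the chromosome 7 cluster, drawn over the span of its target as distance in kb from the first base of the Trim6 target; red marks an adjusted p under 0.05 and dashes targets outside the description rule. Most targets lie between -2.43 and -1.41, while 3 rows of the Trim30/12-like target, 1 row each of Trim34 and Trim12 and the second Trim30d target lie between -0.75 and -0.01.

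Family genes whose descriptions lacked the words of the rule were looked at beside the members. Pml, the TRIM protein that organises nuclear bodies, had 8.01, 8.19 and 8.27 in LPS/GalN mice, against 10.90, 10.59 and 10.67 in LPS mice, and fell 5.91-fold (change -2.56, adjusted p = 0.00096). Trim30c, in the same cluster, had 5.07, 5.93 and 6.70 in LPS/GalN mice, against 8.04, 8.04 and 8.30 in LPS mice, and fell as well (change -2.23, adjusted p = 0.02). Trim5 had 6.09, 4.81 and 6.61 in LPS/GalN mice, against 7.58, 7.31 and 7.44 in LPS mice, which did not overlap but missed the threshold (difference -1.60, adjusted p = 0.0986). Mefv, which encodes the inflammasome protein pyrin, differed by -0.04, and Mid2, a microtubule-binding relative of Mid1, by 0.31, both short of the threshold. Trim66, of the chromatin group by role, differed by -0.08 and did not pass it either. Trim3, Trim38 and Trim72 were not analysed here.

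Direct neighbours of called members were not all called. Trim11 lay 6386 bases from its neighbour Trim17 on chromosome 11, and Trim17, a ligase known from neurons, had 6.17, 5.55 and 5.23 in LPS/GalN mice, against 4.99, 4.81 and 5.99 in LPS mice, a difference of 0.39 (95% interval -0.49 to 1.27). On chromosome 17 Trim26 lay 1310 bases from Trim15. That gene had 5.18, 5.31 and 5.57 in LPS/GalN mice, against 5.72, 5.33 and 4.84 in LPS mice, a difference of 0.06 (95% interval -0.59 to 0.70). Both neighbours were near the RANDOM row. Trim17 was above it on 1 and Trim15 on 2 of the 3 LPS arrays, and both on all LPS/GalN arrays. Whether they changed cannot be told at such levels.

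Members with other roles did not pass the test in either direction. Several were close to the RANDOM row, which lay between 4.969 and 5.117 on the arrays. Mean levels were 5.09 for Trim63 and Trim59, 5.47 for Trim9, 5.59 for Trim55, 5.66 for Trim46, 5.72 for Trim67 and 5.79 for Trim33, against 10.13 for Trim28. At such low levels a missing call does not show that a gene was unchanged. Trim28 (KAP1), the corepressor of KRAB zinc finger proteins, had 10.09, 10.50 and 10.16 in LPS/GalN mice, against 10.03, 9.96 and 10.03 in LPS mice. It was the only member whose LPS/GalN mice all lay above its LPS mice, by a small difference of 0.24 (95% interval -0.26 to 0.75, adjusted p = 0.631). The other chromatin members were Trim24, a nuclear receptor cofactor that suppresses liver tumours in mice, with a difference of -0.33 (-1.06 to 0.41), and Trim33, which acts with Smad proteins, with a difference of -0.05 (-0.62 to 0.52). Their groups overlapped.

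The muscle ring finger proteins, which are ligases of the sarcomere, were Trim54, Trim55 and Trim63. Trim54 had 7.53, 6.56 and 5.80 in LPS/GalN mice, against 4.77, 5.82 and 5.38 in LPS mice. LPS mouse 2 lay just above the lowest LPS/GalN mouse, 2 of the 3 LPS arrays were above RANDOM, and the difference of 1.31 (95% interval 0.25 to 2.37) was the highest of the 49 members but missed the threshold (adjusted p = 0.19). Its second row differed by 0.45. Striated muscle markers summed to 262, 442 and 370 in LPS/GalN mice, against 280, 340 and 395 in LPS mice, but only 2 of the 6 were above RANDOM on all arrays, and the part of muscle RNA in the Trim54 difference was not tested. Trim55 differed by 0.37 (-0.57 to 1.31) and Trim63 by 0.19 (-0.52 to 0.90), with overlapping groups.

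Among the microtubule members, Mid1, a ligase that controls phosphatase 2A and is mutated in Opitz syndrome, had 6.03, 5.92 and 5.94 in LPS/GalN mice, against 6.79, 6.41 and 7.30 in LPS mice. The groups did not overlap, and the difference of -0.87 (95% interval -1.49 to -0.24) missed the threshold (adjusted p = 0.146); a further Mid1 feature differed by -0.14. Trim9, Trim46 and Trim67, known from neurons, differed by -0.30, -0.11 and 0.33, and Trim36 had a mean not above RANDOM. The NHL repeat members Trim2 and Trim32, ligases known from neurons and muscle, differed by 0.13 (-0.87 to 1.13) and -0.23 (-1.39 to 0.93). The groups overlapped for Trim9, Trim46, Trim67, Trim2 and Trim32.

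Of the 13 members placed in no role group, 0 were called, and their changes lay between -0.68 and 0.64. Trim47 was the lowest of them, with 6.88, 6.89 and 7.5 in LPS/GalN mice, against 7.10, 8.57 and 7.65 in LPS mice. Trim37, a centrosome protein mutated in mulibrey nanism, was the highest, with 8.06, 8.56 and 8.52 in LPS/GalN mice, against 7.43, 7.40 and 8.39 in LPS mice (difference 0.64, 95% interval -0.11 to 1.39). For both, 1 LPS mouse reached into the other group's range. Trim44, which lacks a RING finger, had 11.08, 10.86 and 11.17 in LPS/GalN mice, against 9.91, 10.60 and 10.95 in LPS mice, again with 1 LPS mouse inside the LPS/GalN range. Trim39 differed by 0.01 (-0.51 to 0.54), and Trim59 by 0.56 (-0.35 to 1.47). Trim10 and Trim50 had means not above RANDOM.

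**Figure D5:**
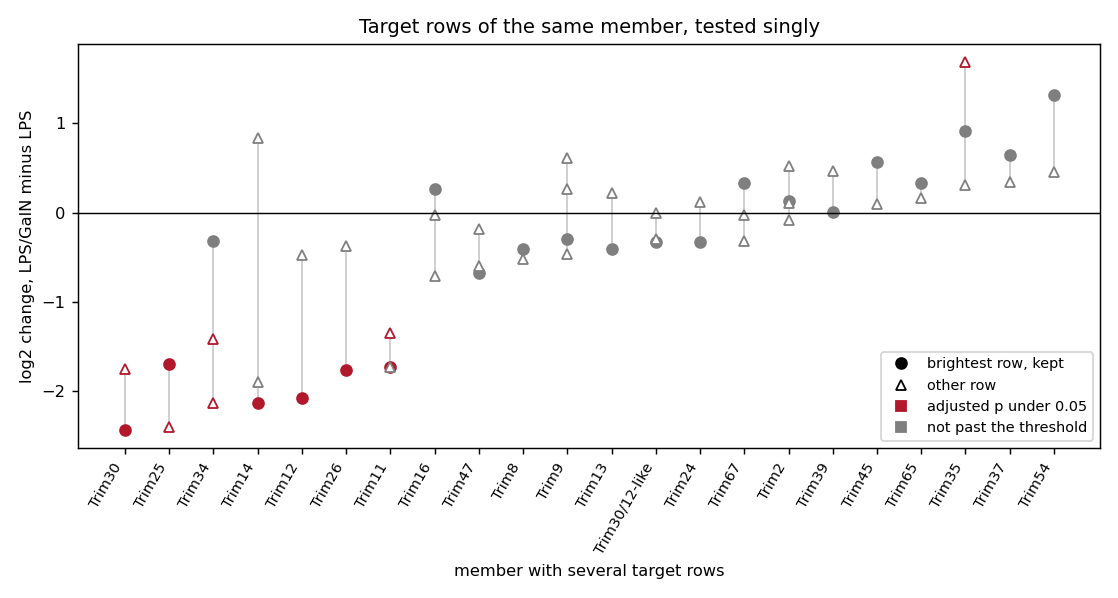
Log2 change, LPS/GalN minus LPS, of every target row of the 22 members with several rows, tested singly; circles are the kept, brightest row, open triangles the others, and red marks an adjusted p under 0.05. All rows of Trim30, Trim25 and Trim11 are negative, while the rows of Trim14 span from -2.13 to 0.83 and those of Trim35 from 0.31 to 1.68.

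Counted over single rows, 15 of the 83 rows were called lower and 1 higher, against 3.13% and 0.654% of all rows on the array, and 12 members had at least 1 called row. The rows of a member gave different calls for Trim11, Trim12, Trim14, Trim26, Trim34 and Trim35. The files give the span of each target but not the positions of its probes, so whether the rows of a gene report different transcripts was not examined.

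A pathway list of 32 interferon and RNA-sensing genes was followed beside the members. Most sense RNA or DNA, carry the signal to interferon or attach the ubiquitin-like protein Isg15, while others, such as Trex1 and Socs1, do not. Whether each acts with a TRIM protein was not examined. The 4 not found by gene name were Ddx58, which encodes RIG-I, Mavs, Tmem173, which encodes STING, and Usp18. Of the 28 found, 15 fell, none rose (also at an unadjusted p under 0.05) and 13 did not pass the test, with a median change of -1.53. Over all features 3.05% were called lower and 0.605% higher, and the median change was 0.0526. The 6 with the smallest p were Trex1, a nuclease that clears cytosolic DNA (-3.10), Isg15 itself (-3.36), Rnf135, a ligase that acts on RIG-I beside Trim25 (-3.16), Socs1, an inhibitor of cytokine receptors (-3.93), Ikbke, the kinase IKK epsilon that Trim6 serves (-2.68), and Irf9, a subunit of the factor that binds the ISRE (-2.08). Isg15 had 10.25, 9.97 and 11.03 in LPS/GalN mice, against 13.68, 13.75 and 13.89 in LPS mice. The interferon receptor genes were not called: Ifnar1 differed by 0.14 (95% interval -0.37 to 0.65) and Ifnar2 by 0.28 (-0.22 to 0.77). Ifnb1, which encodes interferon beta, differed by -0.21 (-0.93 to 0.51) and was above RANDOM on 1 of the 3 LPS/GalN and 2 of the 3 LPS arrays.

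The arrays with high intestine or thymocyte markers were left out in separate fits, one for each group, and never all together. Without LPS replicates 1 and 2, the changes of the 10 members lay between -3.92 and -1.66, and without LPS/GalN replicates 2 and 3 between -3.94 and -1.30. These fits had 1 mouse left in a group, which is assumed to vary like the other group, and called 0 and 1 (Trim21) of the members. The endothelial, macrophage and neutrophil marker sums differed between the groups on all arrays, and their part in the changes was not tested. Trim21, Trim30d, Trim56, Trim30, Trim11 and Trim25 stayed past the threshold with each single array left out, while Trim26, Trim6, Trim12 and Trim14 did not.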

How the data were processed

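Liver RNA was measured on 6 one-colour NimbleGen arrays, 3 LPS/GalN and 3 LPS mice, grouped by the treatment in the labels. The authors deposited 1 table per array of RMA intensity on a linear scale for 44170 targets, per the submitters' processing notes and the file headers; 44155 were summarised from 3 probe pairs. RMA normalizes arrays to one another, so a global shift in RNA would be removed; its version is not given in the sources used here. A deposited value table of the series held the 18076 rows at or above 50 on all arrays and served as an alternative. Intensities were taken to log2, and rows of a gene were joined by keeping the brightest. The fit on group used limma 3.58.1 (R 4.3.3, lmFit, eBayes, prior df 3.999) over 36336 features. It was two-sided, with Benjamini-Hochberg adjustment and a threshold of 0.05. The code of the fit was run on simulated data with independent residuals, in which only brighter features were changed. That run says nothing of signals of other tissues shared by arrays or of dim members. Rows without the words of the rule were not joined to a member of the same gene, so Trim12c, Trim30d and Mid1 each had a further feature. The number of arrays limits the precision. Coordinates of targets are mm9 as in the files.

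The members and gene lists were chosen with earlier results of these data known. Named were all called members, up to 6 uncalled members with the smallest p whose groups did not overlap (4 existed), a fixed list of 28 family members, the 5 members with the highest and the 5 with the lowest mean level, the 6 called pathway genes with the smallest p, Pml, Mid1, Mid2 and Mefv, and, by name only, members not above RANDOM. Others were named after their values were seen: Trim5's neighbour Trim30c, second targets, Trim9, Trim15, Trim17, Trim31, Trim46, Trim47, Trim66, Trim67, the markers Vil1, Tff3, Cpa1 and Cela1 and the receptors and interferon genes of the pathway list. Trim12c and Trim30d were named from the identical (Trim30d) or nearly identical (Trim12c) span of a named row. Alternatives were the replicate block, trended and robust eBayes, a filter on dim features, quantile normalization, the mean of rows, no joining, the value table, and leaving out arrays singly or together.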

Additional observations from a re-analysis of the deposited data

How the results depend on the processing

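The count of members called lower was 10, and it was 9 to 11 with the replicate block, trended and robust fitting, the filter on dim features, quantile normalization, no joining of rows and the deposited value table, and 8 with the mean of a gene's rows. It ranged from 6 to 10 with 1 array left out (6 without LPS replicate 2), and was 0 without LPS replicates 1 and 2 and 1 without LPS/GalN replicates 2 and 3, fits with fewer samples. No member was called higher under any of these. The median change of the members above RANDOM, -0.109, ranged from -0.266 to -0.0145 with 1 array left out, and was -0.217 without LPS replicates 1 and 2, -0.269 without LPS/GalN replicates 2 and 3 and -0.413 in the value table, which holds 26 members and leaves out dim ones. The 15 pathway genes called lower became 0 without LPS replicates 1 and 2 and 7 without LPS/GalN replicates 2 and 3. The replicate numbers did not pair the samples (correlations of deviations 0.0031, -0.00235 and 0.0256), and with the replicate block 9 members and 14 pathway genes were called lower, Trim26 being lost at an adjusted p of 0.0508. The mean of rows lost Trim12 (0.0506), Trim14 (0.159) and Trim26 (0.124) and gained Trim34 (0.0251). Trim12c was gained by trended and robust fitting (0.0103) and in the value table (0.0415). Groups of 3 mice limit which changes can pass the threshold.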
